A study of Mus musculus with 2 samples.

Results

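Klf2, Klf4 and Klf5 are 3 of the 32286 features in each of the 2 mouse scRNA-seq (single-cell RNA sequencing) libraries, and they were chosen by symbol because their levels and co-detection were already known to differ between the stages and lines of these data. All levels below are therefore descriptions, and no test was run on them. 1 library held ESCs (embryonic stem cells) at 0 h, grown with serum/LIF over mouse feeder cells, and the other held epiblast-like cells after 48 h in N2B27 medium with activin A, bFGF and KSR on Matrigel (48h-EpiLCs). Into each went as many wild-type cells (WT, marked by tdTomato from the reporter ROSA mT/mG) as Cnot8 knockout cells (KO), both of the ICR strain. The genotype label of both libraries reads wild type, although both titles name WT and KO cells. The KO ESCs came from blastocysts of Cnot8 heterozygote matings in which Cas9 had been aimed at an early exon, and single colonies had been picked, so that a line may stand for 1 embryo. The paper's methods start EpiLCs from ESCs in 2i/LIF medium, so the serum/LIF ESCs may not be the culture from which the 48h-EpiLCs came. With 1 library per stage and no replicate, stage, library and any difference in starting medium cannot be told apart. No difference below has a replicate check.

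A cell was called WT when it held at least 1 tdTomato UMI (unique molecular identifier, 1 per captured transcript end) and 0 UMIs of the Y-linked genes Ddx3y, Eif2s3y, Kdm5d and Uty. It was called KO when it held 0 tdTomato UMIs and at least 2 of those Y-linked UMIs. The rule was applied to cells in which 1000 genes or more were detected and mitochondrial genes gave no more than 10% of UMIs. It gave 435 WT and 2978 KO ESCs of 11054, and 368 WT and 2977 KO 48h-EpiLCs of 9400. The other 7641 and 6055 cells were in neither class. Median depth was 13151 and 13368 UMIs per cell in WT and KO ESCs, and 15598 and 17628 in WT and KO 48h-EpiLCs. The line therefore comes with sex-linked transcripts as well as genotype, and these cannot be told apart. Cnot8 RNA did not check the label, since it was higher in the KO classes, at 72.1 against 43.1 CPM (UMIs of the gene scaled to 1e+06 UMIs of the class) in ESCs and 62.6 against 49.7 CPM in 48h-EpiLCs. The paper gives the mutant Cnot8 allele as a deletion of a few nucleotides. The counts come from the 3′ ends of transcripts and need not fall with so short a deletion. Whether they include the edited exon is not known. The pluripotency markers Utf1, Dppa5a, Sox2, Pou5f1 and Sall4 were present in all 4 classes, and the lowest of their values was Pou5f1 at 75.5 CPM in KO ESCs. KO ESCs also held 199 cells (6.68%) from clusters with feeder fibroblast, primitive endoderm or 2-cell-like markers, against 11 cells (2.53%) in WT ESCs. The KO over WT ratios in ESCs and the stage ratio of Klf2 in KO cells are given with and without these cells. Other values of the WT and KO ESC classes, such as shares of cells and joint detection, include them. The libraries shared 41 cell barcodes.

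Krüppel-like factors (KLFs) bind GC-rich and CACCC sequences through 3 zinc fingers at their C terminus. In mouse ESCs, Klf4 is known as a target of the LIF/STAT3 pathway, Klf2 as a factor that helps hold the naïve state when ERK signalling is blocked, and Klf5 as a factor that ESCs need for self-renewal and that also acts in the trophectoderm lineage. The 3 factors bind many of the same sites and can in part replace one another, and all of them are known to decline as naïve cells move towards the formative state. Cnot8 is a catalytic subunit of the Ccr4-Not complex, the main machinery that trims mRNA poly(A) tails.

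Klf2 (ENSMUSG00000055148) lies at chr8:72319033-72321656 on the plus strand, Klf4 (ENSMUSG00000003032) at chr4:55527143-55532466 on the minus strand and Klf5 (ENSMUSG00000005148) at chr14:99298691-99315036 on the plus strand (GRCm38, GENCODE M21). All 3 are protein-coding genes, and no other annotated gene overlaps them on either strand. RefSeq promoters (GRCm38.p6) of 300 bases, from 250 before to 50 after the start, were matched for 2 of the 3 members, Klf2 (chr8:72318812-72319111, plus strand) and Klf4 (chr4:55532426-55532725, minus strand), and are shown because both genes were lower in 48h-EpiLCs. Capitals mark GGGCGG on either strand, the GC box that KLF and Sp factors bind, and in Klf2 also the match to the MEF2 consensus, the motif of the factors downstream of ERK5.
Klf2: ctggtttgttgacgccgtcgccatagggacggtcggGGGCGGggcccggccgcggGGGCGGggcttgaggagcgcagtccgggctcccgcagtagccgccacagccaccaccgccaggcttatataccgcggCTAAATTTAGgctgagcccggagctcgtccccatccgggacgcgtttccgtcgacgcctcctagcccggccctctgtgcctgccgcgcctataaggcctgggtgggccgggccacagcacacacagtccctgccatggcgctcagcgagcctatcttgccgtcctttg
Klf4: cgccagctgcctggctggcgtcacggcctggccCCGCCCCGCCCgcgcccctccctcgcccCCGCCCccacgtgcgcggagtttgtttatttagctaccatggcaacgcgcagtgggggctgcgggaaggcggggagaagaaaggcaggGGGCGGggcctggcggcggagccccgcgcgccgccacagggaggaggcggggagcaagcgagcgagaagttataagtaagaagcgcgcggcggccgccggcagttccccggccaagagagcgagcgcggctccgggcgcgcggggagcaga
The Klf2 promoter held 2 GC boxes and 1 MEF2 match, and the Klf4 promoter held 4 GC boxes, of which the first pair share a base, and no MEF2 match. The first base of the MEF2 match lay at position -118 from the start. Of 32544 promoters of the same length, 35.9% held GGGCGG and 3.16% the MEF2 consensus. CACCC was found 1 time in Klf2 and not in Klf4, against 57.7% of all promoters, and neither promoter held TTCNNNGAA, the letters of a STAT site, which 8.33% of promoters held. Both promoters were rich in G and C, at 69.3% and 74.3%, against a median of 53.0%. A match describes the letters of this window and not a bound site.

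The 3′ UTRs, through which deadenylases are often recruited, differed in length and in sequence elements (longest complete coding transcript of each gene, GENCODE M21). They were 737 nt long in Klf2, 982 nt in Klf4 and 1707 nt in Klf5, against a median of 965.5 nt over 20448 genes. The Pumilio element TGTANATA, read on the sense strand, was found 1 time in Klf2 and 3 times in Klf5 and not in Klf4, and 23.7% of all 3′ UTRs held it. The AU-rich pentamer ATTTA was found 1 time each in Klf2 and Klf4 and 4 times in Klf5, and 65.9% of all 3′ UTRs held it. The cytoplasmic polyadenylation element TTTTAT was found 2 times each in Klf2 and Klf4 and 5 times in Klf5, and 52.3% of all 3′ UTRs held it. All Pumilio matches are shown as stretches of 25 bases with the element in capitals, because this element was present in Klf2 and Klf5 and absent from Klf4.
Klf2, chr8:72321230-72321254, plus strand: tataatatTGTATATAagactatga
Klf5, chr14:99313908-99313932, plus strand: ccgaatttTGTAAATAtgcaaatca
Klf5, chr14:99314783-99314807, plus strand: tctcaacgTGTAAATAggcgacaaa
Klf5, chr14:99314803-99314827, plus strand: acaaatggTGTAAATAgttttgtaa
With 3 genes, no relation of these elements to the levels was read.

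The levels of all 3 genes were lower in 48h-EpiLCs than in ESCs, and the 2 lines differed in opposite ways between the genes. Klf2 was at 399.7 CPM in WT ESCs (384.0 to 415.8, exact 95% Poisson interval, 2460 UMIs), 462 CPM in KO ESCs (456 to 468), 37.5 CPM in WT 48h-EpiLCs (32.8 to 42.6, 233 UMIs) and 93.1 CPM in KO 48h-EpiLCs (90.6 to 95.6). Klf4 was at 155 CPM (145 to 165), 92.0 CPM (89.2 to 94.9), 8.52 CPM (6.38 to 11.1, 53 UMIs) and 4.94 CPM (4.39 to 5.54, 293 UMIs) in the same order. Klf5 was at 181 CPM (170.2 to 191.6), 209.7 CPM (205.4 to 214.0), 24.6 CPM (20.9 to 28.8, 153 UMIs) and 37.2 CPM (35.7 to 38.8). Thus Klf4 was higher in the WT class at both stages, Klf2 and Klf5 were higher in the KO class at both stages, and no 2 of the 4 intervals of any gene overlapped. All intervals in this text cover counting error only, and the spread between cultures was not measured.

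**Figure D1:**
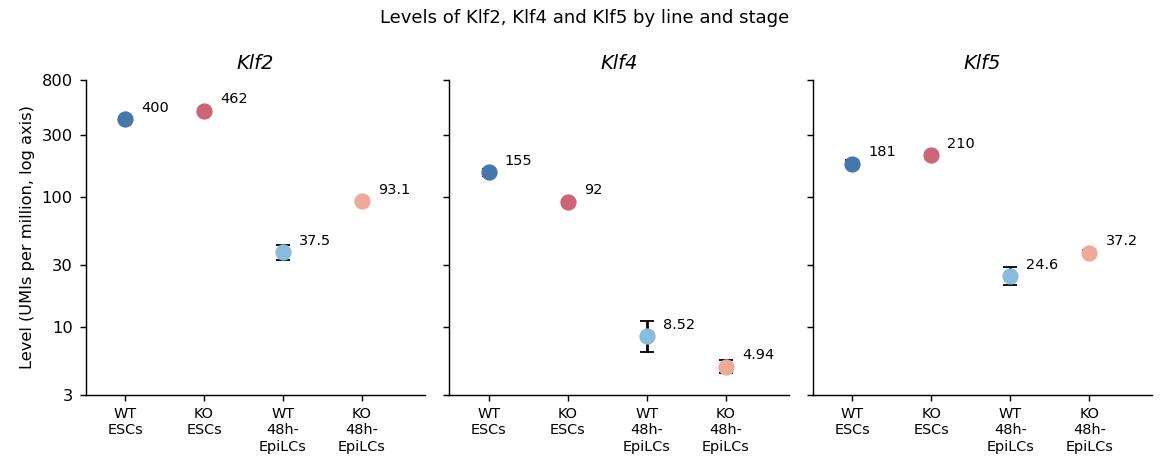
Levels of Klf2, Klf4 and Klf5 in CPM on a log axis, for WT and KO cells of both libraries, with exact 95% Poisson intervals (1 library per stage, no replicates). Klf2 and Klf5 lie higher and Klf4 lower in the KO class at both stages, and all 3 lie lower in 48h-EpiLCs, with Klf4 lowest at 8.52 and 4.94.

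In ESCs, Klf4 was the member that differed most between the lines. The KO level was 1.68-fold lower than the WT level (log2 ratio -0.75, -0.85 to -0.64, exact binomial interval), whereas Klf2 and Klf5 were 1.16-fold higher each (log2 ratio 0.21 for both, 0.15 to 0.27 and 0.12 to 0.31). Called here means a difference of at least 1.5-fold on the log2(CPM + 1) scale among genes with a mean of at least 5 CPM. By this rule 1 member, Klf4, was called lower in KO ESCs, as were 4.98% of the 9277 genes compared, and none was called higher, as were 12.4%. Of all called genes 71.4% were higher (1154 higher, 462 lower), and 54.8% with TMM scaling (827 higher, 683 lower). The median gene had a log2 ratio of 0.12, so Klf2 and Klf5 lay close to the middle of all genes, with 59.1% and 59.7% of genes below them, while 2.98% of genes lay below Klf4. With TMM scaling, which sets the bulk of genes at no change, Klf2 and Klf5 had log2 ratios of 0.10 each and Klf4 -0.86. Without the clusters of other cell types, the ratios were 0.24 for Klf2, -0.79 for Klf4 and 0.22 for Klf5. The 10 feeder markers summed to 68.6 CPM in KO and 18.7 CPM in WT ESCs with 0 and 2 of them at 0 UMIs, and the 9 primitive endoderm markers to 42.6 and 23.7 CPM with none at 0. Feeder-like cells had 160.0 CPM of Klf4, close to WT ESCs, and the Klf4 difference was as large without them.

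In 48h-EpiLCs the direction of each gene was the same, and the ratios of Klf2 and Klf5 were larger. The log2 ratio of Klf2 minus that of Klf5 was -0.01 in ESCs (-0.11 to 0.10) and 0.72 in 48h-EpiLCs (0.41 to 1.02). Klf2 was 2.48-fold higher in KO than in WT cells (log2 ratio 1.31, 1.12 to 1.51), Klf5 was 1.51-fold higher (0.60, 0.36 to 0.84) and Klf4 was 1.72-fold lower (-0.79, -1.21 to -0.34). Klf2 was called higher, as were 8.07% of the 9385 genes compared, and Klf4 was called lower, as were 4.3%. Klf5 was at 0.58 on the log2(CPM + 1) scale, just under the 1.5-fold limit, and over 10 alternatives its CPM ratio ran from 0.55 to 0.79, on both sides of that limit. Klf2 was at 1.29 on the same log2(CPM + 1) scale. The median gene had a log2 ratio of 0.07. The Klf4 call depended on how the line was assigned. With lines taken from clusters of cells the Klf4 ratio was -0.36 (-0.55 to -0.16), and -0.34 when likely doublets were also left out, so that it was then within 1.5-fold. Klf4 rested on 53 UMIs in WT cells, and no cell type without Klf4 was present in this library to give the level of free RNA.

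The line ratio differed between the stages for Klf2 and, less, for Klf5. The log2 ratio of KO over WT was 1.10 higher in 48h-EpiLCs than in ESCs for Klf2 (0.91 to 1.30, counting error on the log scale) and 0.38 higher for Klf5 (0.13 to 0.63). For Klf4 it was -0.04 (-0.47 to 0.40), an interval that leaves room for a change in either direction. Between Klf2 and Klf4 the KO over WT ratios lay 0.96 apart in ESCs (0.84 to 1.07) and 2.10 apart in 48h-EpiLCs (1.64 to 2.56).

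**Figure D2:**
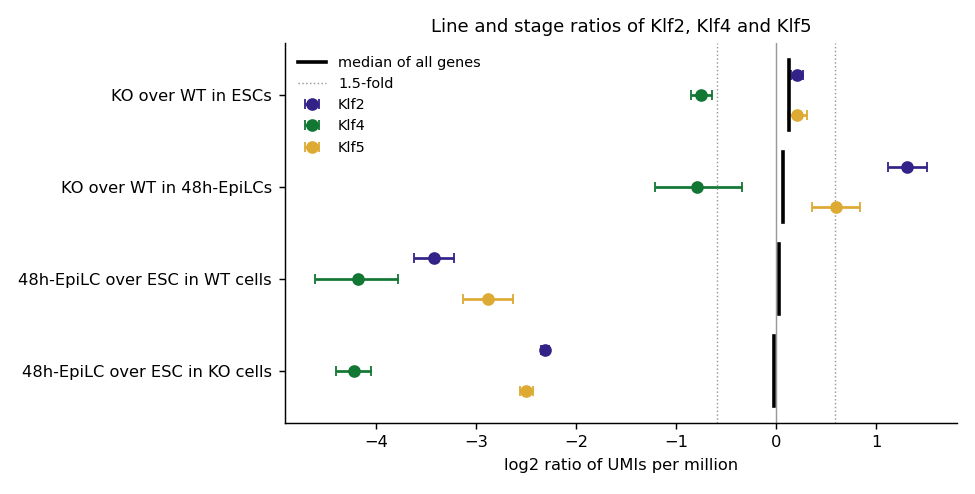
Log2 ratios of CPM for Klf2, Klf4 and Klf5 in the 4 comparisons, with exact 95% binomial intervals, the median of all genes with a mean of at least 5 CPM (black bars) and the 1.5-fold limits (dotted). Klf4 lies left of 0 in both line comparisons at -0.75 and -0.79, Klf2 moves from 0.21 in ESCs to 1.31 in 48h-EpiLCs, and all 3 genes lie left of -2 in the stage comparisons.

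In 48h-EpiLCs all 3 members were called lower than in ESCs in both lines, against 11.4% of the 9242 genes compared in WT cells and 10.1% of 9478 in KO cells. No member was called higher, against 13.3% and 8.55% of these genes. Klf4 was 18.1-fold lower in WT cells (log2 ratio -4.18, -4.61 to -3.78) and 18.6-fold lower in KO cells (-4.22, -4.39 to -4.05). Klf2 was 10.7-fold lower in WT (-3.42, -3.62 to -3.22) but 4.96-fold lower in KO cells (-2.31, -2.35 to -2.27). Klf5 was 7.34-fold lower in WT (-2.88, -3.13 to -2.63) and 5.64-fold lower in KO cells (-2.49, -2.56 to -2.43). The order of the stage ratios thus changed with the line: Klf5 had the smallest ratio in WT cells and Klf2 in KO cells, with Klf2 0.54 below Klf5 in WT (0.23 to 0.85) and 0.18 above it in KO cells (0.10 to 0.26).

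The makeup of the 3 Klf mRNAs shifted with both line and stage. UMIs count transcript ends whatever the length of the transcript, but how well each mRNA is captured is not known, so shares are compared between classes and not between genes. Klf4 gave 21.0% of the UMIs of the 3 genes in WT ESCs (19.8% to 22.2%, Clopper-Pearson interval, 4523 UMIs), 12.1% in KO ESCs (11.7% to 12.4%), 12.1% in WT 48h-EpiLCs (9.18% to 15.5%) and 3.65% in KO 48h-EpiLCs (3.25% to 4.09%). The share of Klf2 was 54.4%, 60.5%, 53.1% and 68.8% in the same order. Klf2 UMIs per Klf4 UMI were 2.59, 5.02, 4.40 and 18.8, so that the KO class of each stage had the higher value. The summed level of the 3 genes differed little between WT and KO ESCs, at 735 CPM (714 to 757) and 764 CPM (755 to 772). In 48h-EpiLCs it was 70.6 CPM in WT (64.1 to 77.5) and 135 CPM in KO cells (132 to 138).

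The same pattern was seen in shares of cells once each cell had been thinned to 5000 UMIs, which left out 1, 23, 1 and 9 shallower cells of the 4 classes. Klf2 was detected in 76.7% of WT ESCs (72.5% to 80.6%) and 82.2% of KO ESCs (80.8% to 83.6%), and in 11.7% of WT (8.61% to 15.5%) and 31.8% of KO 48h-EpiLCs (30.1% to 33.5%). Klf4 was detected in 46.1% of WT ESCs (41.3% to 50.9%) and 33.3% of KO ESCs (31.6% to 35.1%). In 48h-EpiLCs Klf4 was detected in 3.81% of WT (2.10% to 6.32%) and 2.19% of KO cells (1.69% to 2.78%), 2 shares whose intervals overlapped. Klf5 was detected in 54.4% of WT ESCs (49.6% to 59.1%), 61.4% of KO ESCs (59.6% to 63.2%), 10.4% of WT 48h-EpiLCs (7.43% to 13.9%) and 15.8% of KO 48h-EpiLCs (14.5% to 17.2%). Without thinning, the shares were 94.7%, 94.7%, 30.4% and 61.6% for Klf2, 68.0%, 61.0%, 10.3% and 8.50% for Klf4, and 82.3%, 86.4%, 28.5% and 42.6% for Klf5. Nanog, which fibroblasts and primitive endoderm should lack, was detected in 11.6% of 294 feeder-like cells (median depth 10484 UMIs before thinning) and 7.29% of 192 primitive endoderm-like cells (11474 UMIs) of the ESC library after thinning. Whether these UMIs came from free RNA, from doublets or from the cells themselves was not tested. The 48h-EpiLC library held no cluster of either type.

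**Figure D3:**
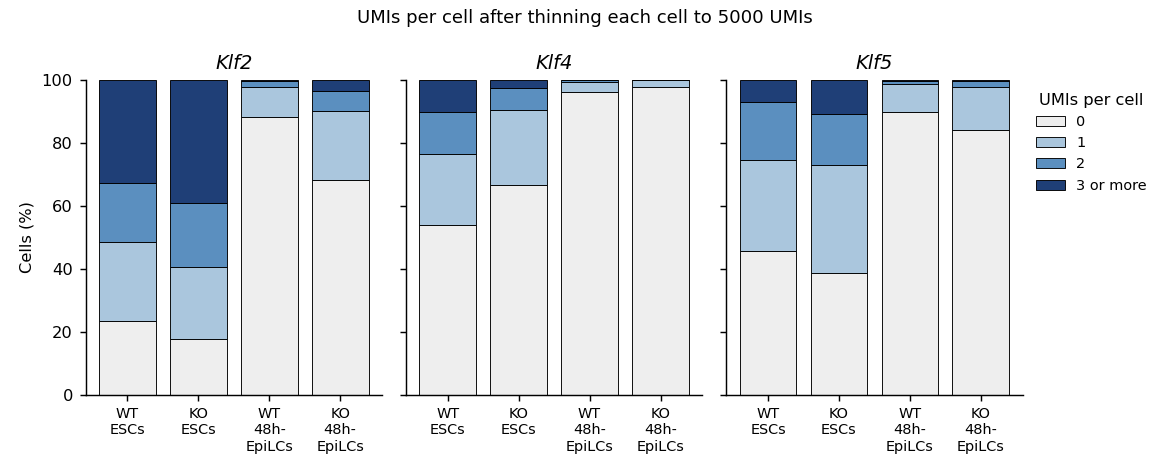
Share of cells with 0, 1, 2 and 3 or more UMIs of each gene after thinning each cell to 5000 UMIs, by class. Klf2 has 3 or more UMIs in 32.9% of WT and 39.0% of KO ESCs, Klf4 in 10.4% and 2.67%, and nearly all 48h-EpiLCs have 0 UMIs of Klf4.

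Counts per cell, at 5000 UMIs, differed for Klf4 between the lines of ESCs. No Klf4 UMI was found in 53.9% of WT and 66.7% of KO ESCs, 22.4% of WT and 23.7% of KO ESCs held exactly 1, 13.4% and 6.94% held 2, and 10.4% and 2.67% held 3 or more. For Klf2, 3 or more UMIs were found in 32.9% of WT and 39.0% of KO ESCs, and in 0.545% of WT and 3.47% of KO 48h-EpiLCs. The variance of Klf2 over its mean was 1.69 and 1.75 in WT and KO ESCs, against medians of 1.01 and 1.03 over all genes with a mean of at least 0.02 UMIs per cell, and 99.1% and 98.4% of genes had a lower ratio. The ratio of Klf4 was 1.60 in WT ESCs, above 98.9% of genes, and 1.38 in KO ESCs, above 96.7%. Klf5 was closest to the other genes in WT ESCs, with a ratio of 1.20 that lay above 92.8% of them. A gene with more UMIs per cell can reach a higher ratio, so these ranks are not free of level.

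In WT ESCs each member was found more often in cells that held another member, at 5000 UMIs per cell. Klf5 was detected in 62.5% of cells with Klf4 and 47.4% of cells without it, Klf4 in 48.9% of cells with Klf2 and 36.6% without it, and Klf5 in 57.1% of cells with Klf2 and 45.5% without it. In KO ESCs the same pairs of shares were closer, at 63.7% and 60.3%, 33.8% and 31.4%, and 61.4% and 61.4%. As joint shares, Klf4 and Klf5 were found together in 28.8% of WT ESCs (24.6% to 33.3%, product of the separate shares 25.1%), Klf2 and Klf4 in 37.6% (33.0% to 42.3%, product 35.4%) and Klf2 and Klf5 in 43.8% (39.1% to 48.6%, product 41.7%). In KO ESCs the joint shares were 21.2% (product 20.5%), 27.7% (27.4%) and 50.5% (50.5%). All 3 genes were found in 24.0% of WT ESCs (20.0% to 28.3%), above the product of 19.2%, and none of them in 8.99% (6.47% to 12.1%), above the product of 5.72%. In KO ESCs these shares were 17.9% (16.5% to 19.3%, product 16.8%) and 4.60% (3.88% to 5.42%, product 4.58%). Cells with all 3 genes or with none were thus more frequent than the product in WT ESCs, and in KO ESCs both products lay within the intervals. That the 2 lines differ in this was not tested. The interval of the joint share held the product for all 12 pairs of members by class, but it takes the separate shares as known although they come from the same cells, and genes found in most cells leave it little room, so that this does not show that detection was independent. With lines taken from clusters, the ratio of joint share to product in WT ESCs was 1.05 (1.01 to 1.09) for Klf2 and Klf4 and 1.08 (1.02 to 1.13) for Klf4 and Klf5, and in WT 48h-EpiLCs it was 1.28 (1.04 to 1.57) for Klf2 and Klf5. The WT clusters pooled in that 48h-EpiLC set ranged from 26.2 to 182 CPM for Klf2 and from 18.6 to 53.5 CPM for Klf5. Those pooled in the ESC set ranged from 358 to 460 CPM for Klf2, 114 to 204 CPM for Klf4 and 167 to 215 CPM for Klf5. They included 690 deep cells (median 22356 UMIs) with Y-linked genes at 61.9 CPM. The part of these spreads, and of such cells, in the ratios from clusters was not tested. In unthinned KO 48h-EpiLCs the ratio of joint share to product was 1.11 (1.05 to 1.18) for Klf2 and Klf5. It was 1.31 (1.11 to 1.54) for Klf4 and Klf5, and cells there also differ in depth.

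**Figure D4:**
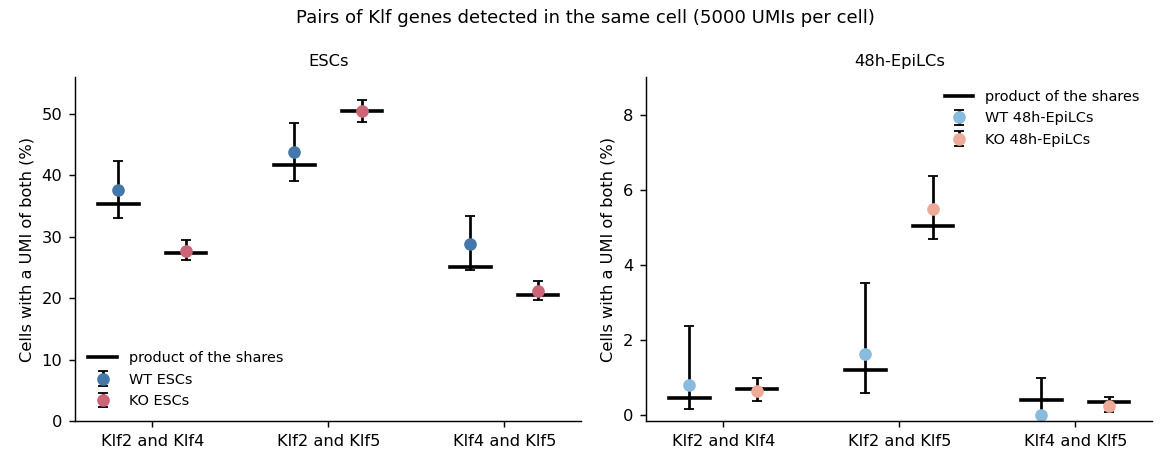
Share of cells with a UMI of both genes of a pair after thinning to 5000 UMIs (points with Clopper-Pearson 95% intervals) and the product of the separate shares (black bars), for ESCs and 48h-EpiLCs on separate axes. In all 12 cases the black bar lies within the interval, and the joint shares are 21.2% to 50.5% in ESCs and at most 5.49% in 48h-EpiLCs.

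At 5000 UMIs per 48h-EpiLC, most cells held no UMI of the 3 genes, 76.6% of WT (71.9% to 80.8%) and 56.5% of KO cells (54.7% to 58.3%). These shares hold for that depth, since without thinning Klf2 was detected in 61.6% of KO cells. All 3 were found in 0 of 367 WT cells, which allows a share of up to 0.817% by a limit of 3 counts and 1.00% by the Clopper-Pearson interval, and in 2 of 2968 KO cells. Klf2 alone was found in 9.26% of WT and 25.7% of KO cells, Klf5 alone in 8.72% and 10.2%, and Klf4 alone in 3.00% and 1.38%. The intervals of Klf2 alone lay apart (6.50% to 12.7% and 24.1% to 27.3%), and those of Klf5 alone overlapped (6.04% to 12.1% and 9.11% to 11.3%).

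Levels also varied between clusters of 1 line, which had been made without the Klf, naïve, core and formative genes. In the 7 KO-rich ESC clusters Klf4 ranged from 64.9 to 132 CPM (2.03-fold) and Klf5 from 174 to 257 CPM (1.48-fold), and in the 3 WT-rich clusters Klf4 ranged from 114 to 204 CPM. The cluster of 1555 KO-rich ESCs led by Ly6a, St8sia1, Tead4 and Bmp4 had 127 CPM of Klf4 and 257 CPM of Klf5, close to the WT-rich cluster of 2752 cells for Klf4 (134 CPM). The KO-rich maximum of Klf4 was that of 435 shallow cells (median 4304 UMIs) with Y-linked genes at 61.8 CPM, the lowest value among the KO-rich ESC clusters. The ranges of the lines overlapped through the WT-rich cluster of 690 deep cells (median 22356 UMIs, Y-linked genes at 61.9 CPM, Klf4 at 114 CPM), and the other WT-rich clusters had 134 and 204 CPM of Klf4. The lowest Klf4 levels were those of 2 KO-rich clusters of 1657 and 1550 cells, at 71.4 and 64.9 CPM. In 48h-EpiLCs, Klf2 ranged from 46.7 to 131 CPM over 5 KO-rich clusters and from 26.2 to 182 CPM over 5 WT-rich ones, where the highest value was that of 120 cells whose leading genes included H19 and Tfap2c. Without these 120 cells and the cluster of 678 very deep cells (median 31647 UMIs, Y-linked genes at 58.2 CPM), the WT-rich clusters had 26.2 to 42.5 CPM. The KO-rich minimum was that of 236 cells with Y-linked genes at 35.3 CPM, against 82.7 to 131 CPM in the other KO-rich clusters. Those other clusters had 63.7 to 131 CPM of Klf2. The primitive endoderm-like cells had the highest Klf5 level, 503 CPM (476 to 532), with 85.9% of thinned cells positive.

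**Figure D5:**
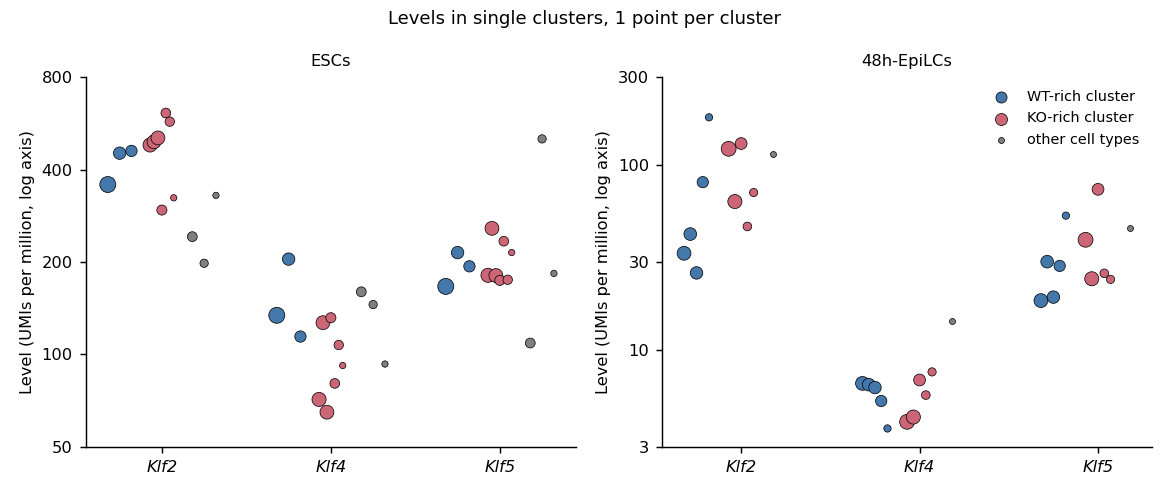
Levels of Klf2, Klf4 and Klf5 in CPM on a log axis, 1 point per cluster, point area growing with the square root of the cell number, for clusters rich or poor in tdTomato and clusters with markers of other cell types. The KO-rich ESC clusters span 64.9 to 132 for Klf4, and 1 WT-rich 48h-EpiLC cluster of 120 cells stands at 182 for Klf2, above the 5 KO-rich ones.

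Among the other 14 members of the Klf family, those that were measurable differed less with stage. Klf3, a repressor of the family, was the one called in all 4 comparisons: it was higher in KO than in WT cells, at 137 against 69.7 CPM in ESCs and 75.8 against 36.5 CPM in 48h-EpiLCs, and lower in 48h-EpiLCs in both lines. In ESCs 3 of 9 tested members were called higher in KO cells (Klf3, Klf6 and Klf12), against 12.4% of all genes, and in 48h-EpiLCs 2 of 8 (Klf3 and Klf7), against 8.07%, and none was called lower at either stage. In 48h-EpiLCs against ESCs, Klf3 and Klf9 were called lower and Klf13 higher among 8 tested in WT cells, and 4 of 9 were called lower in KO cells (Klf3, Klf11, Klf12 and Klf16). Of all genes, 11.4% were called lower and 13.3% higher in WT cells, and 10.1% lower in KO cells. The median log2 stage ratio of the family was -0.37 in WT and -0.54 in KO cells, against 0.03 and -0.02 over all genes.

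The naïve partner genes, which were chosen with earlier results of these data known, included genes on either side of the line comparison. In 48h-EpiLCs 3 of 7 tested were called higher in KO cells, against 8.07% of all genes. These were Zfp42 (97.1 against 37.5 CPM), Dppa3 (48.4 against 21.5 CPM) and Esrrb (11.3 against 3.54 CPM). Nanog was called lower (17.2 against 27.5 CPM), as were 4.3% of all genes. In ESCs Zfp42, also known as Rex1, was called higher (603 against 304 CPM) and Fbxo15 lower (35.4 against 63.0 CPM) among 11 tested. Of all genes 12.4% were called higher and 4.98% lower. Nanog was at 56.1 against 84.5 CPM in ESCs, a log2 ratio of -0.59 (-0.73 to -0.45) on the CPM scale. With stage, 10 of 11 were called lower in each line, against 11.4% of all genes in WT and 10.1% in KO cells. The list medians were -2.87 in WT and -2.06 in KO cells. The levels of Klf4 and Nanog were thus both lower, and those of Klf2 and Zfp42 both higher, in the KO class at both stages. Of the 3 core factors Pou5f1, Sox2 and Sall4, none was called between the lines, and Sox2 and Sall4 were called lower in 48h-EpiLCs in both.

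Genes of the pathways known to act on the Klf genes were described next. Of 8 genes of the LIF/STAT3 pathway none was called between the lines in ESCs, where Stat3 was at 55.0 CPM in KO and 43.4 CPM in WT cells and the feedback inhibitor Socs3 at 24.1 and 32.8 CPM. In 48h-EpiLCs 1 of 5 tested, the receptor Lifr, was called higher in KO cells (7.47 against 4.50 CPM), against 8.07% of all genes. With stage, 6 of 8 were called lower in each line, against 11.4% of all genes in WT and 10.1% in KO cells. Stat3 was among them, at 6.43 CPM in WT and 9.26 CPM in KO 48h-EpiLCs, and the kinase Pim1 was called higher in both lines. In the FGF/ERK list the ligand Fgf4 was called lower in KO cells at both stages, at 65.3 against 143 CPM and 54.7 against 101 CPM, and the phosphatase Dusp4 was called higher, at 37.4 against 15.1 CPM and 75.1 against 41.6 CPM. The other ERK feedback gene called between the lines was Spry4, lower in KO 48h-EpiLCs (16.0 against 29.6 CPM). In the ERK5-MEF2 list, whose factors can act on Klf2, only Mef2d was called between the lines, higher in KO ESCs (22.4 against 13.0 CPM), and none of 6 in 48h-EpiLCs. The median of this list was 0.32 in ESCs and 0.10 in 48h-EpiLCs, against 0.12 and 0.07 over all genes.

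Immediate early genes, a group to which short-lived mRNAs such as Fos and Egr1 belong and which handling of cells can raise, differed between the lines in 48h-EpiLCs. Of 10 tested, 7 were called lower in KO cells, against 4.3% of all genes, and the list median was -1.01. Among the 7 were Ier3 (34.4 against 132 CPM), Fos (14.1 against 44.4 CPM) and Fosb (15.4 against 46.8 CPM). In ESCs 1 of 10 was called lower, Ier2 (85.6 against 147 CPM), against 4.98% of all genes. Klf2 and Klf4 are themselves known to respond as early genes in other cells, and in KO 48h-EpiLCs Klf4 was called lower, as these genes were, while Klf2 was called higher. The Klf4 call depended on how the line was assigned, since its log2 ratio was -0.36, within 1.5-fold, with lines taken from clusters. The part of handling in the Klf levels was not tested.

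Of 10 formative genes, 7 were called higher with stage in WT and 9 in KO cells, against 13.3% and 8.55% of all genes. Among them were Fgf5 (2.76 to 53.4 CPM in WT and 1.29 to 35.9 CPM in KO cells), Pou3f1 and Otx2. Between the lines, Sox3 was called lower in KO cells at both stages, Otx2 and Lef1 in ESCs and Zic2 in 48h-EpiLCs, and Dnmt3a was called higher in KO 48h-EpiLCs (287 against 177 CPM).

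Joint detection with other genes was measured at 5000 UMIs per cell. Each member was paired with 32 other genes where both were detected, which gave 354 pairs by class, and the interval of the joint share lay above the product in 12 and below it in 3. These 15 pairs were 6 of Klf4 in ESCs, 1 of Klf5 in ESCs, with Klf16, and 8 of Klf2 and Klf5 in KO 48h-EpiLCs. Among 354 intervals at 95%, some can miss the product through counting error alone. How many would do so was not tested. The pairs also share members and partner genes, so the 15 are given as a description and not as separate associations. In WT ESCs Klf4 was detected in 76.1% of the 67 cells with Tbx3, a LIF-responsive factor, and in 40.6% of the cells without it. The shares were 67.8% and 40.4% for Esrrb, and 38.4% and 58.4% for the DNA methyltransferase Dnmt3b, which was the 1 pair in WT ESCs below its product. In KO ESCs Klf4 was detected in 44.8% of cells with Tbx3 and 31.0% without it, in 39.3% and 31.6% with and without Nanog, and in 28.0% and 35.3% with and without Pou3f1. In KO 48h-EpiLCs Klf2 was detected in 38.8% of cells with Zfp42 and 27.9% without it, in 38.7% and 28.8% with and without Klf3, in 42.8% and 30.7% with and without Nr0b1, in 43.8% and 31.3% with and without Tfcp2l1, and in 25.6% and 32.9% with and without Fgf5. Klf5 was detected there in 23.4% of cells with Nanog and 15.3% without it, in 18.9% and 14.1% with and without Zfp42, and in 28.6% and 15.5% with and without Socs3. For a pair of genes found in most cells the joint share can hardly leave the product, so that this count misses pairs of Klf2 in ESCs. In KO ESCs, Klf2 was detected in 83.9% of 2636 cells with Zfp42 and in 68.3% of cells without it, although the joint share lay within its interval. This pair was chosen after its values were seen. The KO ESC class also held 98 feeder-like and 77 primitive endoderm-like cells. In all cells of these types, Klf2 was detected in 51.0% and 49.0% after thinning. The shares by Zfp42 were not computed without them, so the part of cell type in this pair was not tested.

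Genes with the most similar pattern to each member were ranked by the mean, over the WT and KO class, of Pearson's r across cells of log(1 + UMIs) at 5000 UMIs, among 6926 genes in ESCs. For Klf4 in ESCs these were Tbx3 (mean r 0.19), Nanog (0.16), Arid5b (0.15), Esrrb (0.13) and Eif2s2 (0.13). For Klf2 in ESCs they were Chchd10 (0.14), Zfp42 (0.13), Tdh (0.12), Apoe (0.11) and Hmces (0.11), and Klf4 followed at rank 6 with 0.10. For Klf5 in ESCs they were Fig4, B4galt6, Trim27, Id1 and Tbx3, at 0.09 to 0.10. In 48h-EpiLCs the highest was Hspb1 for Klf2 (0.19), ahead of Npr1, Pdgfa, Zfp42 and Aire (all 0.13), and Gbx2 for Klf5 (0.11), ahead of Hspb1, Rras, Baz1a and Rpp14 (all 0.11). Klf4 was in too few 48h-EpiLCs to be ranked. The cells of a class share a library and counts were sparse, so these low values are given as a description.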

How the data were processed

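Per the labels, the authors sequenced 2 10x Genomics libraries and made the count matrices with Cell Ranger 3.0.2 (default settings, mm10 with the tdTomato coding sequence added). The deposited values are raw UMI counts per gene and barcode, and later steps by the authors in Seurat 4 were not used. Whether counting used strand is not given in the sources used here. The libraries held 144584246 and 163771168 UMIs over 13184 and 12427 barcodes (medians 10965.5 and 13333).

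Filters (1000 genes, 10% mitochondrial UMIs) and lines were set as stated above. UMIs were summed per class and scaled to CPM. With 1 library per stage, no test across cells was run. Poisson, binomial and Clopper-Pearson 95% intervals cover counting error only. Genes with a mean of at least 5 CPM were called past 1.5-fold with a pseudocount of 1 CPM. Doublets were kept in the main analysis, and the 10% of cells with the highest scores against simulated doublets were left out as an alternative. Such cells were 45 of 435 WT and 629 of 2978 KO ESCs, and 34 of 368 WT and 632 of 2977 KO 48h-EpiLCs. They made up a larger share of the KO than of the WT class at both stages. Cells were clustered with leidenalg 0.10.2 (resolution 1, 30 principal components, 15 neighbours) on 2000 variable genes without the Klf, naïve, core, formative and Y-linked genes. Clusters were set aside when at least 3 markers of another type exceeded 20 CPM and 4-fold. Scripts used Python 3.11.15, numpy 2.4.6, scipy 1.17.1 and scikit-learn 1.9.0 and were tested on simulated data. Alternatives were 7 other sets of cells, another depth, TMM scaling, the mean CPM of single cells, another pseudocount, no filter and a 2-fold limit. Genes named from the lists were those called, with the related genes of the same pathway that the text sets beside them, and the 5 genes most like each member. The members and lists were chosen with earlier results of these data known.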

Additional observations from a re-analysis of the deposited data

Results flagged for a closer look

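Dppa3, a naïve and germ cell gene, was lower in KO than in WT ESCs, at 12.9 against 16.2 CPM (log2 ratio -0.34, -0.64 to -0.01), and higher in KO than in WT 48h-EpiLCs, at 48.4 against 21.5 CPM (1.17, 0.92 to 1.43). It drew attention because its line ratio pointed in opposite directions at the 2 stages. With 1 library per stage the difference was not tested.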

How the results depend on the processing

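No sign of a member's ratio reversed under any alternative run. With lines taken from clusters, the KO over WT log2 ratio of Klf2 was 0.31 in ESCs and 1.03 in 48h-EpiLCs, its stage ratio -3.02 in WT cells, and that of Klf5 -2.36 in KO cells. With likely doublets also left out, an alternative chosen after seeing the data, the ratio of Klf2 was 0.36 in ESCs and its stage ratio -3.21 in WT cells, while the stage ratios were -4.63 for Klf4 in WT and -2.37 for Klf5 in KO cells. With likely doublets left out but lines set by the main rule, the KO over WT log2 ratios in ESCs were 0.23 for Klf2, -0.84 for Klf4 and 0.24 for Klf5. In 48h-EpiLCs they were 1.45, -0.77 and 0.73 in the same order. With thinning to 5000 UMIs, the KO over WT ratio was -0.86 for Klf4 in ESCs and 1.64 for Klf2 in 48h-EpiLCs, and the WT stage ratio of Klf2 was -3.71. With TMM scaling, the ratios in ESCs were 0.10 for Klf2, -0.86 for Klf4 and 0.10 for Klf5, and the KO stage ratio of Klf2 was -2.27. Without clusters of other cell types, the last was -2.36. The causes of these shifts were not tested. The Klf4 ratio in 48h-EpiLCs ran from -0.99 to -0.34. The numbers of genes past 1.5-fold were 1616 and 1161 between lines in ESCs and 48h-EpiLCs, and 2283 and 1767 between stages in WT and KO cells. With TMM scaling the larger direction between stages turned, from 1225 higher and 1058 lower to 1083 and 1182 in WT cells, and from 810 and 957 to 918 and 857 in KO cells. The numbers were 3295, 2460, 4560 and 3172 with no filter on low values, and 468, 305, 870 and 621 past 2-fold. No paired analysis was possible because each stage had 1 library. With 53 Klf4 UMIs in WT 48h-EpiLCs, counting error alone spans -1.21 to -0.34 for its line ratio.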

Other observations

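The 7641 ESCs and 6055 48h-EpiLCs that the line rule put in neither class had Klf2 at 431 and 66.6 CPM, Klf4 at 126 and 5.63 CPM and Klf5 at 191 and 29.4 CPM. All 6 values lay between those of the WT and KO classes of the same stage.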
